A study of Mus musculus with 6 samples.

Results

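Toll-like receptors, formyl peptide receptors and the proteins that work directly with them were followed in irradiated mouse bone marrow cells through 9 genes: Tlr2, Tlr4, Tlr7, Tlr9, Tlr13, Cd14, Myd88, Fpr1 and Fpr2. The genes were chosen by symbol as innate sensors of myeloid and B-lineage cells, and each was found on 1 row of the 30733 symbols listed per library. The tested group was 3 libraries of MHCII-hi cells, and they were set against 3 libraries of MHCII-lo cells. Both groups are labelled as hematopoietic stem cells sorted from the bone marrow of wild-type (WT) mice, and both had received 5 Gy of total body irradiation, so no unirradiated cells enter any comparison. MHCII, the class II molecule that shows peptides to CD4 T cells, was the property on which the cells were divided. The labels and protocols do not state the age and sex of the mice, the sort gates, the time after irradiation or any pooling of animals.

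Toll-like receptors are membrane proteins that recognise conserved microbial molecules. Tlr2 and Tlr4 act at the cell surface, on lipoproteins and lipopolysaccharide, while Tlr7, Tlr9 and Tlr13 act in endosomes, on single-stranded RNA, unmethylated CpG DNA and bacterial ribosomal RNA. Cd14 hands lipopolysaccharide to Tlr4, and Myd88 is the adaptor through which all 5 of these receptors signal to NF-kB and the interferon regulatory factors. Fpr1 and Fpr2 are chemotactic receptors coupled to inhibitory G proteins that lead neutrophils and monocytes to formylated peptides from bacteria and mitochondria. In marrow, mature myeloid cells carry most of these sensors, and B cells and plasmacytoid dendritic cells are known for Tlr7 and Tlr9.

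Promoter sequences were looked up to show the starts of the genes that moved furthest in each direction and of a surface receptor. Of the 9 genes, 6 were found in the RefSeq table of promoters (GRCm38.p6, from 250 bases before to 50 bases after the start, printed along the strand of the gene); Tlr4, Tlr7 and Cd14 were not among them. Both strands were searched for 6 strings: ATGCAAAT (the octamer, known as a POU factor sequence), GAGGAAGT (an ETS-type sequence), GGGAATTCC and GGACTTTCC (both NF-kB sequences), TTNNGCAA (a C/EBP-type sequence) and GAAANNGAA (an interferon response sequence). Capitals mark the matches; those of different strings did not overlap, and the Tlr2 run is one string read on each strand. The promoter of Tlr9, the gene that rose, lies at chr9:106222348-106222647 on the plus strand. That of Tlr2 lies at chr3:83841559-83841858 on the minus strand. Those of Fpr1 and Fpr2, the genes with the largest falls, lie at chr17:17883890-17884189 on the minus strand and chr17:17887574-17887873 on the plus strand.
Tlr9: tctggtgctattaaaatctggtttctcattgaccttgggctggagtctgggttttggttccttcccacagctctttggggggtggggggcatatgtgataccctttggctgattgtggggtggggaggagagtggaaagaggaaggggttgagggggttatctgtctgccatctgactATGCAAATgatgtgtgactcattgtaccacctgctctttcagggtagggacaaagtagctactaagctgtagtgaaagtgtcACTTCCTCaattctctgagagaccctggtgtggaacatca
Tlr2: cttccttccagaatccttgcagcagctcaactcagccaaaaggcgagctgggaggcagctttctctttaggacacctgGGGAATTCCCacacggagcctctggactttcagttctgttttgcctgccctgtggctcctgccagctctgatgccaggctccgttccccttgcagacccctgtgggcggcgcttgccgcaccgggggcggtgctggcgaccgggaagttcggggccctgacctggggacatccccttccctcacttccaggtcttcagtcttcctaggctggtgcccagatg
Fpr1: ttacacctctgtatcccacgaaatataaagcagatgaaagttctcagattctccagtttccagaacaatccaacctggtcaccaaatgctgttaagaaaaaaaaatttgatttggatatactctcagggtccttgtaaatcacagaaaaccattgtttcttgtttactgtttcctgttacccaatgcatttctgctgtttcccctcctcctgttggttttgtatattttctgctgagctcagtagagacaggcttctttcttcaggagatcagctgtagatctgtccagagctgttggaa
Fpr2: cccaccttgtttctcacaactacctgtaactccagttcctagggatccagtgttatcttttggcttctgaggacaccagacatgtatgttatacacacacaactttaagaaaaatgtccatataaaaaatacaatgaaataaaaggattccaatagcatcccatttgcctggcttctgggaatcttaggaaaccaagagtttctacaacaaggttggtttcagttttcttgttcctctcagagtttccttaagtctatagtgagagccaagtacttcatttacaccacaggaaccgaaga

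In Tlr9 the octamer began 72 bases before the start, and 1.74% of all 32851 promoters in the table held it. The same Tlr9 window held the ETS-type string after the start, found in 3.20% of promoters. In Tlr2 GGGAATTCC began 172 bases before the start, and 0.225% of promoters held it. The Myd88 promoter, which is not printed, held GAAAGCGAA, a form of the interferon response string present in 8.56% of promoters, and the Tlr13 promoter held TTTAGCAA, a form of the C/EBP-type string present in 10.8%. No match to any of the 6 strings was found in the windows of Fpr1 and Fpr2, and the string GGACTTTCC, found in 0.344% of promoters, matched none of the 6 windows.

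The libraries were checked before the genes were read. Values are FPKM, fragments scaled by transcript length and by library total, so levels of different genes are compared per length. Depth was estimated at 2.06e+07 to 3.27e+07 fragments per library from the smallest steps in the values. The mean log2 value of 4 class II genes (FPKM + 1) reached 6.75 ± 0.02 in MHCII-hi, against 2.34 ± 0.05 in MHCII-lo (SD, n = 3 each). The difference was 4.41, with an exact permutation p = 0.1 (two-sided), which no split of 3 libraries and 3 can undercut. Of 15 stem cell markers 9 lay below a mean of 1 FPKM, and Mecom, Fgd5, Procr and Slamf1 reached at most 0.72 FPKM in any library. Of the other 6, 5 rose in MHCII-hi and 1 did not pass the limma test described below. Among the 5, Ly6a, Gata2, Meis1 and Kit had the smallest p. Their means were 35.537, 19.47, 2.4833 and 14.977 FPKM in MHCII-hi, against 2.4967, 10.77, 1.2633 and 12.587 FPKM in MHCII-lo. The 18 neutrophil markers summed to between 19214 and 19459 FPKM in MHCII-hi and between 42438 and 42976 FPKM in MHCII-lo, so neutrophil transcripts were abundant in both groups of cells labelled as stem cells. The labels do not say whether libraries were made from different animals, and every p-value therefore rests on spread among libraries alone, and that spread may be technical.

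Of the 9 genes, 8 fell and 1 rose in MHCII-hi cells. The falls were largest for the formyl peptide receptors, to 30.3% and 31.7% of the MHCII-lo level, and smallest for Tlr2 and Tlr7. Tlr9 was the gene that rose, to nearly 2 times its MHCII-lo level. All 9 had a mean of at least 1 FPKM and were tested by limma on log2(FPKM + 1) with Benjamini-Hochberg adjustment over all 12110 genes tested, a scale that understates the change of low genes. By this test 58.6% of all tested genes differed, 33.1% lower and 25.5% higher, so passing it is common in these data. The groups did not overlap for any of the 9, against 65.8% of all genes tested, 36.8% lower and 29.0% higher. The median log2 change of the 9 genes was -0.65, beside -0.04 for all genes tested. In sorted bulk cells, fewer cells of a type and less RNA per cell cannot be told apart.

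**Figure D1:**
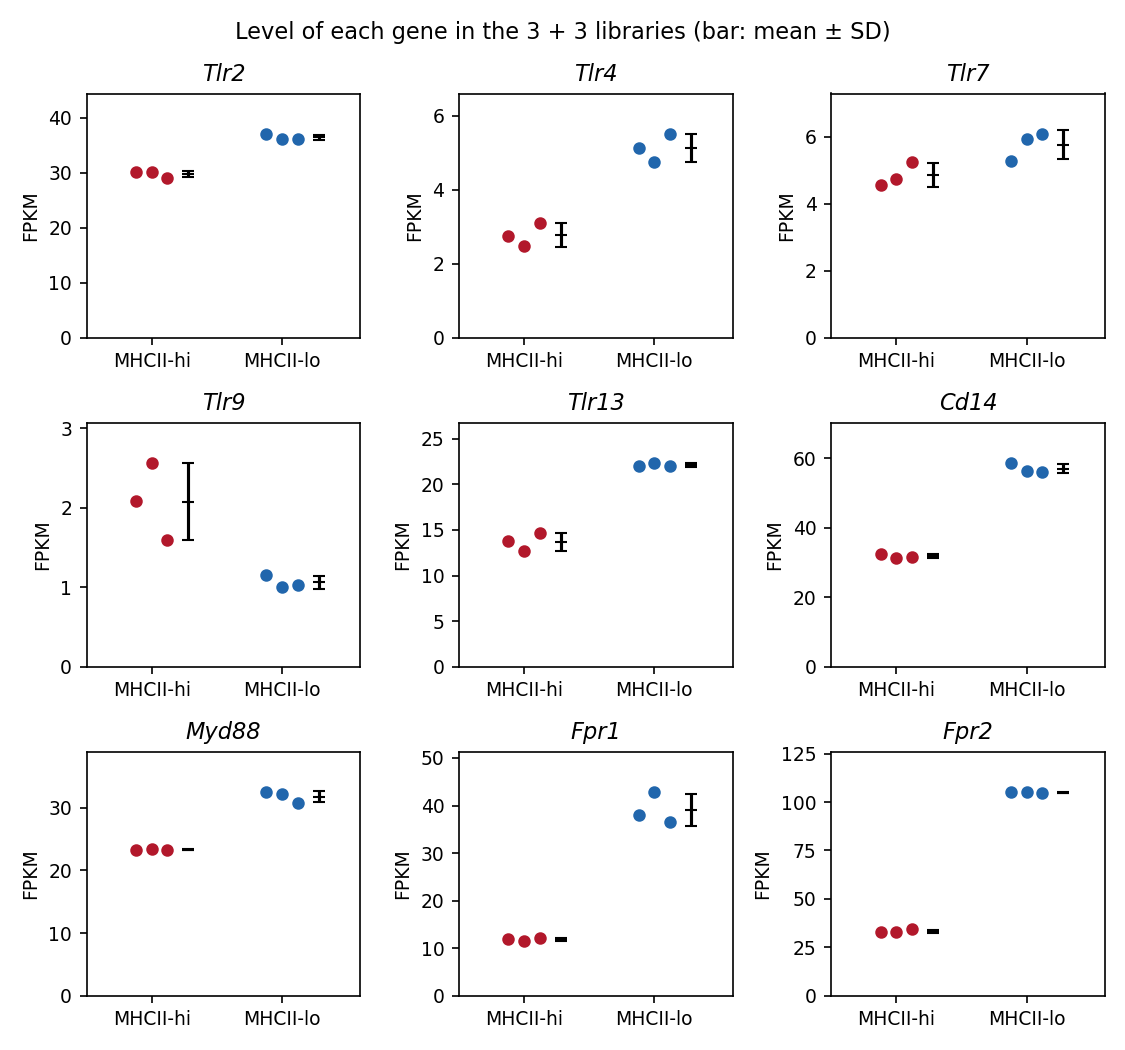
Level of each of the 9 genes in FPKM, with the 3 MHCII-hi libraries on the left and the 3 MHCII-lo libraries on the right of each panel; points are libraries and bars are the mean ± SD, each axis starting at 0. The MHCII-hi points lie below the MHCII-lo points in 8 panels and above them for Tlr9.

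Among the formyl peptide receptors, Fpr1, the receptor with high affinity for short formylated peptides (chromosome 17, 17876471 to 17883940, minus strand), stood at 12.01, 11.5 and 12.1 FPKM in MHCII-hi, against 38.0, 42.8 and 36.5 FPKM in MHCII-lo. Every MHCII-hi library was low, and the lowest MHCII-lo library was still far above the highest of them. The mean was 3.30-fold lower in MHCII-hi, or -1.64 on the log2 scale (SE 0.06, limma adjusted p = 1.57e-06). Fpr2, which also answers to annexin A1 and other host peptides (chromosome 17, 17887824 to 17893952, plus strand), stood at 32.7, 32.9 and 34.2 FPKM in MHCII-hi, against 105.1, 105 and 104.7 FPKM in MHCII-lo. Fpr2 was the most abundant of the 9 genes in both groups, and its MHCII-lo libraries had a coefficient of variation of 0.188%. Counting alone gives an estimated error of 1.73% to 1.80% for each of these libraries, so agreement this close is not a measure of precision. The mean of Fpr2 was 3.16-fold lower in MHCII-hi, or -1.63 on the log2 scale (SE 0.03, limma adjusted p = 2.09e-08). A log2 change of -1 or lower was found for 1.13% of all genes tested, and these were the members that reached it.

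Fpr1 and Fpr2 lie 3884 bases apart and are read away from each other, and they changed by nearly the same factor. The ratio of Fpr2 to Fpr1 within a library does not depend on any single factor that scales the library. Quantile normalization is not such a factor, and under it the log2 changes were -1.64 for Fpr1 and -1.76 for Fpr2. The ratio was 2.80 ± 0.08 in MHCII-hi, against 2.70 ± 0.22 in MHCII-lo (SD, n = 3 each). The ratios of the groups overlapped, with a two-sided exact permutation p = 0.7 for their difference. The neighbouring Fpr3, which shares 48 exon bases with Fpr2, was listed at 0, 0.04 and 0 FPKM in MHCII-hi and at 0.16, 0.03 and 0.06 FPKM in MHCII-lo. Fpr-rs4 was listed at 0 in all 6 libraries, and Fpr-rs3, Fpr-rs6 and Fpr-rs7 were not analysed here.

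Among the surface Toll-like receptors, Tlr2 (chromosome 3, 83836272 to 83841767) stood at 30.1, 30.2 and 29.1 FPKM in MHCII-hi, against 37.0, 36.2 and 36.2 FPKM in MHCII-lo. The change was small beside that of the formyl peptide receptors, and each group was tight. The log2 change was -0.28 (SE 0.03, limma adjusted p = 1.67e-04), and it was -0.17 with upper-quartile scaling and -0.11 when libraries were scaled to their summed FPKM without immunoglobulin genes. Tlr4, the lipopolysaccharide receptor (chromosome 4, 66827584 to 66930284), stood at 2.74, 2.47 and 3.10 FPKM in MHCII-hi, against 5.12, 4.75 and 5.50 FPKM in MHCII-lo. The mean Tlr4 level in MHCII-hi was 54.1% of that in MHCII-lo, and the log2 change was -0.70 (SE 0.08, limma adjusted p = 3.32e-04). The ratio of Tlr2 to Tlr4 within a library was 10.9 ± 1.43 in MHCII-hi against 7.14 ± 0.519 in MHCII-lo, with no overlap (exact permutation p = 0.1, two-sided, the smallest possible).

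Cd14, the coreceptor that passes lipopolysaccharide to Tlr4 (chromosome 18, 36725067 to 36726798), stood at 32.4, 31.4 and 31.7 FPKM in MHCII-hi, against 58.6, 56.4 and 56.2 FPKM in MHCII-lo. All MHCII-hi libraries were low, with a coefficient of variation of 1.64%, below their estimated counting error of 2.33% to 2.99%. The log2 change was -0.82 (SE 0.03, limma adjusted p = 1.07e-06). Cd14 and Tlr4 changed by a similar factor: the ratio of Cd14 to Tlr4 was 11.6 ± 1.26 in MHCII-hi against 11.2 ± 0.864 in MHCII-lo, and the ratios overlapped (exact permutation p = 0.7, two-sided). Against Tlr2, Cd14 was unequal, with a ratio of 1.07 ± 0.03 in MHCII-hi and 1.56 ± 0.02 in MHCII-lo (exact permutation p = 0.1, two-sided). Ly96, the secreted partner that Tlr4 needs to bind lipopolysaccharide, stood at 2.20, 1.07 and 1.55 FPKM in MHCII-hi and 1.65, 1.75 and 2.59 FPKM in MHCII-lo, and did not pass the test (log2 change -0.21, SE 0.19, limma adjusted p = 0.365).

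The endosomal receptors did not move together. Tlr13, the sensor of bacterial ribosomal RNA (chromosome X, 106143204 to 106160493), stood at 13.7, 12.7 and 14.7 FPKM in MHCII-hi, against 22.0, 22.3 and 22.0 FPKM in MHCII-lo, and fell (log2 change -0.65, SE 0.05, limma adjusted p = 6.76e-05). Its libraries were more spread in MHCII-hi than in MHCII-lo, with coefficients of variation of 7.45% and 0.941%, and the groups were well apart. The MHCII-lo value lay below the estimated counting error of those libraries, 2.08% to 2.16%. Tlr7, the sensor of single-stranded RNA (chromosome X, 167304929 to 167330558), stood at 4.57, 4.73 and 5.26 FPKM in MHCII-hi, against 5.27, 5.93 and 6.08 FPKM in MHCII-lo. The highest MHCII-hi library and the lowest MHCII-lo library were next to each other, and the fall was the smallest of the 8 (log2 change -0.21, SE 0.07, limma adjusted p = 0.0364). That call was lost with upper-quartile scaling (log2 change -0.11, adjusted p = 0.217), when scaled without immunoglobulin genes (-0.06, 0.495) and with no expression minimum (0.0787). It was also lost without MHCII-hi replicate 1 (adjusted p = 0.11), MHCII-hi replicate 2 (0.0944), MHCII-lo replicate 2 (0.1) or MHCII-lo replicate 3 (0.107), in the same limma test.

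Tlr9, the sensor of CpG DNA (chromosome 9, 106222598 to 106226883, plus strand), stood at 2.08, 2.56 and 1.59 FPKM in MHCII-hi, against 1.15, 1 and 1.03 FPKM in MHCII-lo. It was the least abundant of the 9 genes in both groups, and its MHCII-hi libraries were the most spread, with a coefficient of variation of 23.4%. The lowest MHCII-hi library still lay above the highest MHCII-lo library. The mean was 1.96-fold higher in MHCII-hi, and the log2 change was 0.57 (SE 0.12, limma adjusted p = 0.00682), or 0.89 with a pseudocount of 0.1. The values rest on an estimated 129 to 237 fragments per MHCII-hi library and 83.6 to 90.7 per MHCII-lo library, which puts the counting error of 1 library between 6.50% and 10.9%. The ratio of Tlr7 to Tlr9 was 2.45 ± 0.763 in MHCII-hi against 5.47 ± 0.770 in MHCII-lo, with no overlap (exact permutation p = 0.1, two-sided). The protein-coding genes on either side of Tlr9, Twf2 at 31.4, 28.6 and 31.1 FPKM in MHCII-hi and 44.2, 43.8 and 43.9 FPKM in MHCII-lo, and Alas1 at 32.2, 31.6 and 32.1 FPKM in MHCII-hi and 43.9, 44.0 and 44.8 FPKM in MHCII-lo, were lower in MHCII-hi.

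Myd88, the adaptor shared by these receptors (chromosome 9, 119335934 to 119341411), stood at 23.3, 23.4 and 23.2 FPKM in MHCII-hi, against 32.5, 32.2 and 30.7 FPKM in MHCII-lo. The MHCII-hi libraries had a coefficient of variation of 0.412%, below their estimated counting error of 2.255% to 2.838%. All of them lay below the MHCII-lo libraries. The log2 change was -0.43 (SE 0.03, limma adjusted p = 3.66e-05), and it was -0.26 when scaled without immunoglobulin genes. On the opposite strand Acaa1a shares 290 of the 2576 exon bases of Myd88, and it was lower too, at 8.19, 7.56 and 8.18 FPKM in MHCII-hi against 10.8, 11.1 and 11.2 FPKM in MHCII-lo. The library kit marks strand, but the sources used here do not say whether the counting used it, so reads in the shared stretch may have been assigned to either gene.

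Ordered by level, the genes ran Fpr2, Cd14, Tlr2, Myd88, Tlr13, Fpr1, Tlr7, Tlr4 and Tlr9 in MHCII-hi, and Fpr2, Cd14, Fpr1, Tlr2, Myd88, Tlr13, Tlr7, Tlr4 and Tlr9 in MHCII-lo. Fpr1 was the sixth in MHCII-hi and the third in MHCII-lo, and the other 8 kept one order. Tlr4 and Tlr9 had overlapping values in MHCII-hi, as did Fpr1 with Tlr2 and Tlr7 with Tlr4 in MHCII-lo, and all other neighbours were apart. Ordered by log2 change, the neighbouring pairs with overlapping within-library ratios were Fpr1 with Fpr2, Cd14 with Tlr4, and Tlr2 with Tlr7. Neighbours in this order have similar changes by construction, so overlap among them does not show that the genes moved together. The other 5 of 8 neighbouring pairs did not overlap. In all, 12 pairs were compared in this way, 9 of them at the smallest possible exact permutation p of 0.1, which is 0.133 after Benjamini-Hochberg adjustment over the 12.

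**Figure D2:**
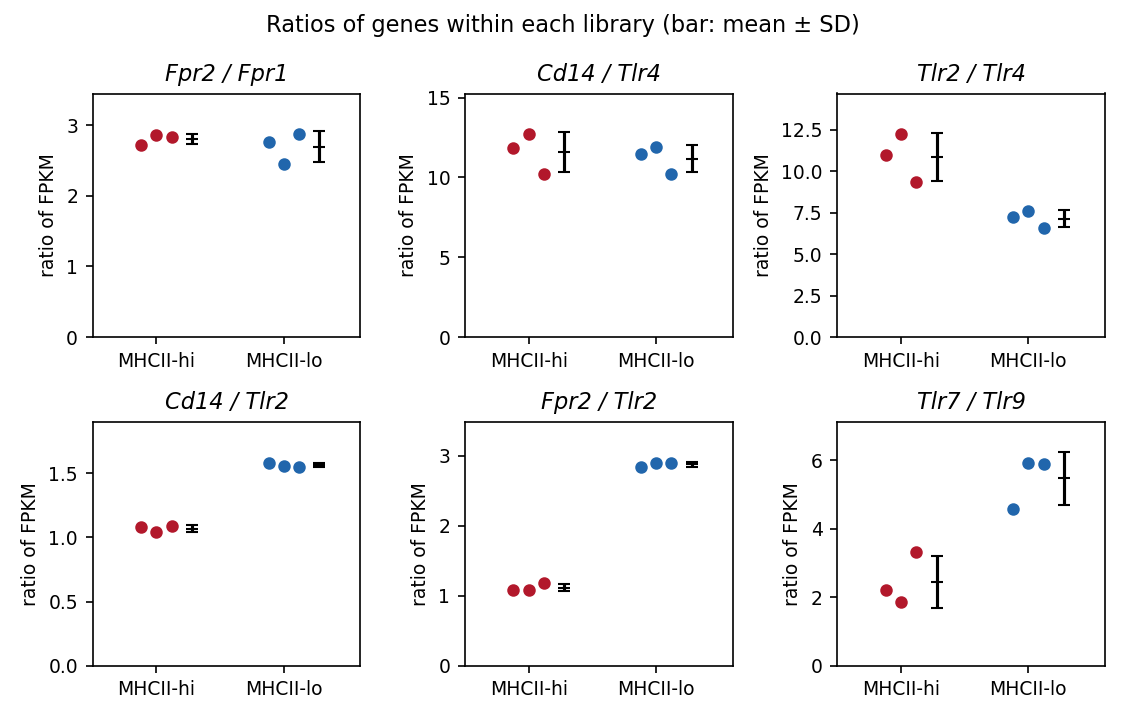
Ratio of the FPKM of one gene to another within each library, for 6 of the pairs compared, with MHCII-hi on the left and MHCII-lo on the right; points are libraries, bars are the mean ± SD, and each axis starts at 0. Fpr2 over Fpr1 and Cd14 over Tlr4 overlap between groups, while Tlr2 over Tlr4 is higher in MHCII-hi and Cd14 over Tlr2, Fpr2 over Tlr2 and Tlr7 over Tlr9 are lower.

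Scaling mattered for the small changes. Scaling to summed FPKM without immunoglobulin genes, which took 23.4% to 23.7% of the sum in MHCII-hi and 0.493% to 0.502% in MHCII-lo, moved the median log2 change of all genes by 0.15. Of the genes called, 69.9% were then higher, in place of 43.5%, and the share was 61.9% with upper-quartile scaling. Against that shifted median of 0.11, the 8 genes that fell had log2 changes between -1.47 and -0.06, with Tlr7 alone no longer past the test, and Tlr9 had 0.67.

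**Figure D3:**
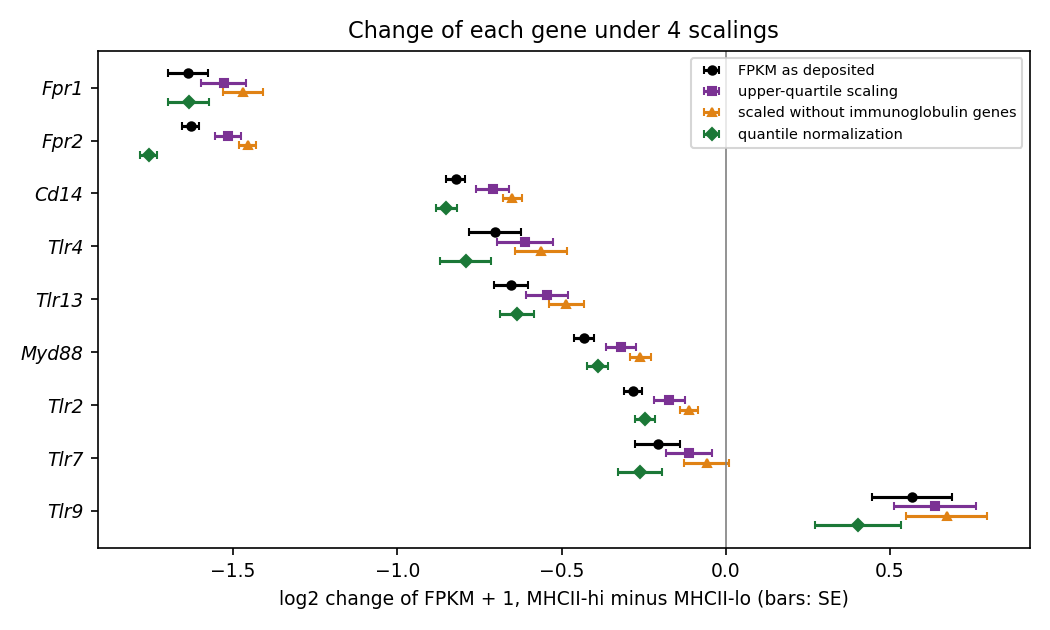
Log2 change of FPKM + 1, MHCII-hi minus MHCII-lo, for each of the 9 genes under 4 scalings, with SE as bars and a line at 0. Fpr1 and Fpr2 stay below -1.4 and Tlr9 stays above 0.4 under all 4, while Tlr2 and Tlr7 come close to 0 when immunoglobulin genes are left out of the scale.

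The remaining Toll-like receptor genes divided by level. Tlr1 and Tlr6, which pair with Tlr2 on lipoproteins, and Tlr8, the neighbour of Tlr7, passed the minimum, and all 3 fell. Tlr6 stood at 1.90, 2.10 and 1.98 FPKM in MHCII-hi, against 3.61, 3.08 and 3.32 FPKM in MHCII-lo (log2 change -0.53, SE 0.07, limma adjusted p = 5.54e-04). Tlr8 averaged 4.83 ± 0.510 FPKM in MHCII-hi and 6.71 ± 0.564 FPKM in MHCII-lo, and Tlr1 2.41 ± 0.05 FPKM in MHCII-hi against 3.41 ± 0.459 FPKM in MHCII-lo (SD, n = 3 each). When scaled without immunoglobulin genes their log2 changes were -0.25 for Tlr8 and -0.24 for Tlr1, in place of -0.41 and -0.37. Tlr3, Tlr5, Tlr11 and Tlr12 were below the minimum, and Tlr3, Tlr11 and Tlr12 were higher in every MHCII-hi library than in any MHCII-lo library. Tlr5, the flagellin receptor, was lower in every MHCII-hi library, at 0.83, 0.45 and 0.84 FPKM in MHCII-hi, against 0.86, 1.09 and 1.12 FPKM in MHCII-lo. Tlr3, the sensor of double-stranded RNA, stood at 0.44, 0.41 and 0.48 FPKM in MHCII-hi, against 0.10, 0.03 and 0.01 FPKM in MHCII-lo. Tlr12, which binds profilin of parasites in mice, stood at 0.78, 0.83 and 1.04 FPKM in MHCII-hi, against 0.26, 0.36 and 0.22 FPKM in MHCII-lo. Fitted with no minimum, over 27171 genes, Tlr3, Tlr11 and Tlr12 passed upwards in limma (adjusted p = 8.40e-04, 0.00473 and 0.00400), and Tlr5 did not pass (0.208).

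**Figure D4:**
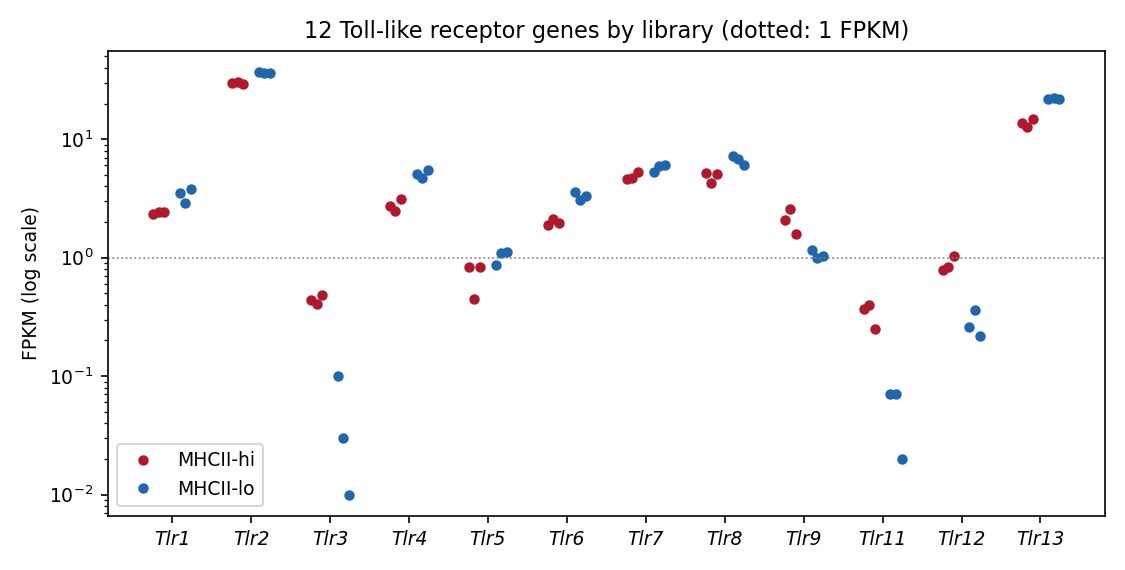
Level of 12 Toll-like receptor genes in every library on a log scale, with MHCII-hi points left of MHCII-lo points for each gene and a dotted line at 1 FPKM. Tlr2 and Tlr13 lie highest in both groups, Tlr9 and the low Tlr3, Tlr11 and Tlr12 lie higher in MHCII-hi, and the other receptors lie lower.

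Proteins that carry, load or cleave the receptors were mixed. Of 15 accessory and trafficking genes, all tested, 6 rose, 4 fell and 5 did not pass, with a median log2 change of -0.02. The median turned to 0.16 when scaled without immunoglobulin genes, where 9 rose, 3 fell and 3 did not pass. Unc93b1, which escorts the endosomal receptors out of the endoplasmic reticulum, averaged 56.3 ± 2.28 FPKM in MHCII-hi and 51.6 ± 1.74 FPKM in MHCII-lo (log2 change 0.12, limma adjusted p = 0.0326), and its log2 change was 0.30 when scaled without immunoglobulin genes. That call was lost under 8 of 15 alternatives, with adjusted p up to 0.115, among them leaving out MHCII-hi replicate 1 or 3 or MHCII-lo replicate 1 or 3 (0.0839, 0.0932, 0.0944 and 0.0671). Ctsk, a lysosomal protease, stood at 12.2, 11.3 and 11.1 FPKM in MHCII-hi, against 4.13, 4.10 and 3.02 FPKM in MHCII-lo. Slc15a3, a lysosomal peptide transporter, averaged 2.89 ± 0.122 FPKM in MHCII-hi and 6.25 ± 0.626 FPKM in MHCII-lo. Hsp90b1, the chaperone that folds Toll-like receptors, and Lbp, which brings lipopolysaccharide to Cd14, fell, with log2 changes of -0.28 and -0.39, or -0.10 and -0.22 when scaled without immunoglobulin genes. Under quantile normalization Hsp90b1 was at -0.66.

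Downstream of the receptors, the calls of adaptors and kinases depended on scaling. Of 21 genes 8 rose, 3 fell and 10 did not pass, with a median log2 change of 0.09. Among all genes tested 25.5% were higher, 33.1% were lower and the rest did not pass. Scaled without immunoglobulin genes, 17 of the 21 rose, 1 fell and 3 did not pass. Tirap, the adaptor that brings Myd88 to Tlr2 and Tlr4, averaged 4.61 ± 0.211 FPKM in MHCII-hi and 6.16 ± 0.585 FPKM in MHCII-lo (log2 change -0.35, SE 0.07, limma adjusted p = 0.00487, and -0.20 scaled without immunoglobulin genes). Ticam1, the Myd88-independent adaptor of Tlr3 and Tlr4, moved the other way, at 4.84 ± 0.400 FPKM in MHCII-hi and 3.65 ± 0.204 FPKM in MHCII-lo (log2 change 0.33, SE 0.07, limma adjusted p = 0.00531). Irak4, the kinase recruited by Myd88, fell (log2 change -0.25), but did not pass with upper-quartile scaling (adjusted p = 0.0908) or scaled without immunoglobulin genes (0.155). Traf6, the ubiquitin ligase that follows it, rose (log2 change 0.23), as did the kinases Ikbkb and Map3k8 and the ubiquitin ligase Peli1 (0.33, 0.34 and 0.24). Scaled without immunoglobulin genes, Traf6 and Peli1 were at 0.38 and 0.39.

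By count, inhibitors, transcription factors and target genes were higher in MHCII-hi more often than lower. Among all genes tested 25.5% were higher and 33.1% lower. Of 17 inhibitors tested 9 rose, 6 fell and 2 did not pass, with a median log2 change of 0.18. The share of inhibitors that fell was near that of all genes. Scaled without immunoglobulin genes, 11 rose, 1 fell and 5 did not pass, with a median of 0.33. The NF-kB feedback inhibitor Tnfaip3 stood at 92.1, 91.5 and 89.9 FPKM in MHCII-hi, against 30.2, 29.7 and 29.7 FPKM in MHCII-lo, and Nfkbia at 191, 195 and 198 FPKM in MHCII-hi, against 76.4, 74.7 and 78.3 FPKM in MHCII-lo. Pilra, an inhibitory receptor of myeloid cells, went the other way, at 7.84 ± 0.01 FPKM in MHCII-hi and 22.0 ± 1.11 FPKM in MHCII-lo. Of 14 transcription factors 12 rose, 1 fell and 1 did not pass, with a median log2 change of 0.51. Those with the smallest p were Jun, Rel, Atf3 and Fos, with log2 changes of 0.89, 1.30, 1.08 and 0.48. The direction of Fos flipped to -0.02 under quantile normalization, where it did not pass (limma adjusted p = 0.221), and that of Jun was 0.41 there.

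Of 26 target genes, known to be induced through Toll-like receptors, 19 were tested, of which 11 rose, 4 fell and 4 did not pass, with a median log2 change of 0.38. The chemokines Ccl3 and Ccl4 averaged 317 ± 13.8 and 128 ± 5.15 FPKM in MHCII-hi, against 172 ± 5.24 and 60.3 ± 3.30 FPKM in MHCII-lo, with a log2 change of 0.88 for Ccl3 that was 0.48 under quantile normalization. Il1b, the inflammatory cytokine, fell to 9.90, 10.2 and 10.6 FPKM in MHCII-hi, against 53.3, 52.0 and 53.5 FPKM in MHCII-lo (log2 change -2.26, SE 0.03, limma adjusted p = 1.74e-08). Lcn2, a target that is also a neutrophil granule gene, had a log2 change of -1.44. It averaged 217 FPKM in MHCII-hi and 593 FPKM in MHCII-lo. By sum the 26 target genes were lower in MHCII-hi, at 898 to 937 FPKM, against 1041 to 1054 FPKM in MHCII-lo. Ifnb1 was listed at 0 in all libraries.

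Genes that act after formyl peptide receptors fell more often than they rose. Of 29 tested, 18 fell, 7 rose and 4 did not pass, with a median log2 change of -0.28. Among all genes tested 33.1% were lower and 25.5% higher, so the share that rose was near that of all genes. Scaled without immunoglobulin genes, 15 of the 29 fell and 11 rose. Those with the smallest p were the oxidase subunits Ncf1 and Ncf4 (log2 changes -0.61 and -0.67, with Ncf1 at -0.93 under quantile normalization), the G protein subunit Gnai3 (-0.51, or -0.34 scaled without immunoglobulin genes) and the Src-family kinase Fgr (-0.96). The falls of Gnai3, Ncf1, Ncf4 and Fgr were all smaller than those of Fpr1 and Fpr2. Of 11 protein ligands 10 were tested, of which 8 fell and 2 did not pass, with a median log2 change of -0.96. Of these ligands S100a8, S100a9 and Camp are also on the list of neutrophil markers. Anxa1, a ligand of Fpr2, stood at 226, 226 and 225 FPKM in MHCII-hi, against 566, 574 and 570 FPKM in MHCII-lo (log2 change -1.33, SE 0.01, limma adjusted p = 4.14e-09). S100a8 and S100a9, described as Tlr4 ligands, and the protease Ctsg, described in human cells as acting on FPR1, had log2 changes of -1.61, -1.36 and -1.12.

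**Figure D5:**
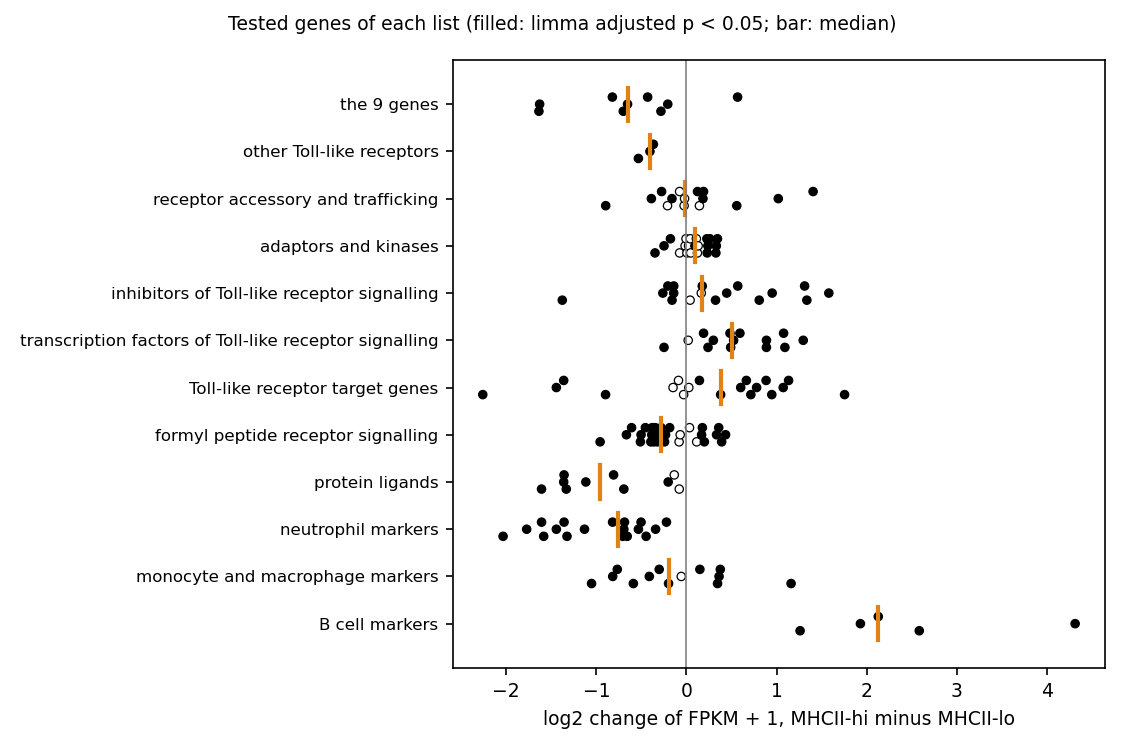
Log2 change of FPKM + 1, MHCII-hi minus MHCII-lo, for the tested genes of each list, with filled points for limma adjusted p under 0.05 and an orange bar at the median of the list. Ligands and neutrophil markers lie mostly left of 0 beside 8 of the 9 genes, while transcription factors and B cell markers lie mostly right of it.

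Among markers of the cells known for these receptors, neutrophil markers fell, and monocyte and macrophage markers went both ways. The B cell and plasmacytoid dendritic cell markers that passed the test rose. All 18 neutrophil markers fell, with a median log2 change of -0.76 and none at 0, beside 33.1% lower among all genes tested. Scaled without immunoglobulin genes, 17 fell and 1 did not pass, with a median of -0.59. Under quantile normalization the median was -1.16. The markers with the smallest p were Mmp8, Lcn2, Mmp9 and S100a9 (log2 changes of -2.04, -1.44, -1.58 and -1.36). Fpr1 and Fpr2, at -1.64 and -1.63, lay inside the range of these markers. Of 13 monocyte and macrophage markers tested, 7 fell, 5 rose and 1 did not pass, with a median log2 change of -0.20, or 6 fell, 5 rose and 2 did not pass with a median of -0.02 when scaled without immunoglobulin genes. That list summed to between 2447 and 2515 FPKM in MHCII-hi and between 3525 and 3543 FPKM in MHCII-lo. Most of that sum was Lyz2, at a mean of 1762 FPKM in MHCII-hi and 2652 FPKM in MHCII-lo. F13a1 and Lyz2 fell (-0.82 and -0.59) while the fractalkine receptor Cx3cr1 rose (1.16). The 12 B cell markers, 5 of them tested, all 5 rising, summed to between 63.0 and 64.4 FPKM in MHCII-hi and between 7.27 and 9.17 FPKM in MHCII-lo. Most of the MHCII-lo sum was Cd79b, a signalling chain of the B cell receptor, at 21.2, 16.5 and 20.4 FPKM in MHCII-hi, against 7.65, 6.85 and 7.92 FPKM in MHCII-lo. Cd79a, the partner of Cd79b, stood at 24.0, 25.1 and 23.9 FPKM in MHCII-hi, against 0.43, 0.14 and 0.27 FPKM in MHCII-lo. In those same MHCII-lo libraries Tlr9 was at 1 to 1.15 FPKM. Of 7 plasmacytoid dendritic cell markers tested 6 rose and 1 did not pass, with Siglech at 4.26, 3.71 and 3.61 FPKM in MHCII-hi, against 0.57, 0.46 and 0.65 FPKM in MHCII-lo. The part of these markers in the changes of the 9 genes was not tested.

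The genes most like the members furthest out were found by the distance between centred profiles of log2(FPKM + 1) over the 6 libraries, among all genes tested except immunoglobulin segments, predicted genes and pseudogenes. For Fpr1 they were Cd38, an ectoenzyme (distance 0.153), Trem1, an activating receptor of neutrophils and monocytes (0.167), and Fpr2 (0.173). Cd38 stood at 1.02, 0.93 and 0.97 FPKM in MHCII-hi, against 5.20, 5.10 and 4.86 FPKM in MHCII-lo. Its mean was 5.19-fold lower in MHCII-hi, against 3.30-fold for Fpr1. The likeness of Cd38 thus holds on the log2(FPKM + 1) scale, which understates the change of low genes. Trem1 stood at 39.3, 40.7 and 41.1 FPKM in MHCII-hi, against 121, 127 and 124 FPKM in MHCII-lo. For Tlr9 they were Ctla2b (0.118), Arl4d (0.131) and Treml1 (0.132). Treml1, a receptor of platelets, averaged 1.98 ± 0.379 FPKM in MHCII-hi and 1.05 ± 0.174 FPKM in MHCII-lo. Arl4d did not pass under quantile normalization (limma adjusted p = 0.0537).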

How the data were processed

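Stranded mRNA libraries of sorted cells were sequenced, per the labels' protocols, and the submitters' processing notes name fastp, HISAT2, StringTie and the build GRCm38 (mm10). No version, setting or annotation is stated there. Each library has a table deposited by the authors, with a symbol and a value per row; the values were read as FPKM made by the authors, since they are not whole numbers and sum to between 332289 and 383600. FPKM is relative to the library total, so abundant transcripts lower all others.

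Of 30803 rows, 70 repeats of a symbol were dropped, keeping the row with the highest mean. Where the mean reached 1 FPKM, log2(FPKM + 1) was fitted by limma 3.58.1 (R 4.3.3) with trend. Two-sided p-values were adjusted by Benjamini-Hochberg across every gene fitted, at 0.05. The fit was also run on simulated data of independent libraries. Far fewer genes were changed there than differed here, so that run does not check the fit under the present conditions. Depth came from the steps of 1 and 2 fragments in single-exon genes of 100 to 1000 bases and is approximate; intervals of counting error rest on it. The median squared difference within replicate pairs was 2.71 to 3.07 times counting noise, and no pair held identical values. That noise is approximate, since it rests on the estimated depth. This ratio cannot tell separate animals from separate preparations of the same cells. Coordinates are from GENCODE M21 (GRCm38).

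The members and lists were chosen with earlier results of these data known. Named were all 9 members, the role genes Ly96, Unc93b1, Tirap, Ticam1, Irak4, Traf6 and the other Toll-like receptors, up to 4 genes with the smallest p per list, and the 3 genes most like each outermost tested member. Lists for plasma cells, conventional dendritic cells, T and NK cells, and eosinophils with basophils were fixed as well: of 12, 8, 14 and 14 genes tested 11, 7, 13 and 13 rose. Of 6 stem cell and 4 class II genes tested, 5 and 4 rose. The motif strings, ratios between members, chromosomal neighbours and the other genes named (Fpr3, Twf2, Alas1 and Acaa1a among them) were chosen after values were seen. One marker gene is not reported here.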

Additional observations from a re-analysis of the deposited data

How the results depend on the processing

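Each gene was refitted under up to 15 alternatives: pseudocount 0.1, no minimum, a minimum of 5 FPKM, 3 scalings, limma without trend or with robust moderation, a replicate block, and each library left out. Tlr2, Tlr13, Cd14, Myd88, Fpr1 and Fpr2 passed in the same direction in all 15, and Tlr4 and Tlr9 in the 14 that tested them. Tlr7 passed in 8 of 15, with log2 changes from -0.26 to -0.06. Of the 9 genes, 7 to 9 passed across the alternatives (7 where Tlr4 and Tlr9 were below the minimum of 5 FPKM), and 8 or 9 with a library left out. Over all genes, 3084 were higher and 4009 lower; 4934 and 2127 were so scaled without immunoglobulin genes, 2401 were lower with upper-quartile scaling, and 1792 were higher at the minimum of 5 FPKM, where fewer genes were tested. The cause of the shifts with scaling was not tested. Leaving out 1 library gave 2716 to 2922 higher and 3583 to 3693 lower genes. Fos reversed to -0.0233 under quantile normalization. With the replicate block 6638 genes passed, against 7093, and all 9 members passed; among the genes named it ended the call of Unc93b1. Same-numbered libraries deviated with correlations of -0.092, -0.0036 and -0.035, so the numbers were not taken as pairs. With 3 libraries a group no outlier test was made. Among the 9 genes, Tlr9 rests on the fewest estimated fragments, and the receptors below 1 FPKM are lower still.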
